A study of Mus musculus with 28 samples.

Results

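The 40 genes described here encode proteins that carry cells through G2 and mitosis. They were chosen by name, and each symbol was matched to 1 mouse Ensembl gene among the 30608 genes of the normalized count table. All 40 were measured in CTLL2, a line of cytotoxic T lymphocytes from C57BL/6 mice that grows in culture on interleukin-2. The 12 exosome libraries came from cells given fresh medium with exosomes of the mouse melanoma line B16F0, suspended in PBS, at 0.2 mg/ml. Exosomes are small membrane vesicles that cells release. The 16 untreated libraries came from cells given fresh medium alone. Exosome cells were sampled after 0.5, 2, 4 and 8 h with 3 libraries each. Untreated cells were sampled at those times with 3 libraries each, and at 0 h with 4 libraries. Every group thus shares 24 h of growth in complete medium before the change of medium. The series' design calls the replicates biological but does not say how the cultures were separated, so the p-values below measure the spread between these libraries. Scatter between libraries of a group was set against counting error as a chi-square per degree of freedom, near 1 for counting error alone. It ran from 1.32 (exosome 2 h replicates 1 and 3) to 133 (untreated 8 h replicates 1 and 3). Libraries of a group may thus not be equally separate cultures, which the tests below do not take into account. The labels put 1 library of each of the 9 groups in batch 1 and the other 19 libraries in batch 2, without saying what a batch was.

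Entry into mitosis is driven by Cdk1 bound to cyclin B, after the Cdc25 phosphatases have removed inhibitory phosphates. Polo-like and Aurora kinases then build the spindle, the checkpoint proteins hold anaphase until every kinetochore is attached, and Cdc20 with the anaphase-promoting complex (APC/C) destroys cyclin B and securin. The transcripts of these genes are made mainly in G2 and M, so in a dividing culture their summed level follows the share of cells in those phases. In RNA from whole cultures, fewer cells of a kind and less RNA per cell cannot be told apart.

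Shared transcription of these genes in the cycle is known to run through a short promoter element, the cell cycle genes homology region with the letters TTTGAA or TTCGAA, which is bound by the MuvB complexes together with B-Myb and FoxM1. CCAAT boxes, bound by NF-Y, often lie upstream of it. The promoters of 33 of the 40 genes were matched in RefSeq (build GRCm38.p6, 250 bases before to 50 bases after the annotated start). Both strands were searched. TTTGAA was in 23 of the 33 (69.7%), against 20.2% of 26992 promoters of other genes. CCAAT was in 27 of the 33 (81.8%), against 41.0% of the others, and TTCGAA was in 4 (12.1%), against 1.79%. TTTGAA or TTCGAA together with CCAAT was in 23 of the 33, against 8.54% of the others. The letters TTTGAA stood within 50 bases of the start in 21 members. None of these motifs was in the windows of Birc5, Mad2l1, Nuf2 and Nusap1. A match is a string of letters and not a measured site. The promoters of 4 genes that the results below turn on, among them 2 whose untreated level was higher at 8 h than at 0 h and 2 whose level was lower, are shown. Capitals mark TTTGAA. They also mark CCAAT, which reads ATTGG where it lies on the opposite strand.
Ccnb2 (chr9:70421505-70421804, minus strand): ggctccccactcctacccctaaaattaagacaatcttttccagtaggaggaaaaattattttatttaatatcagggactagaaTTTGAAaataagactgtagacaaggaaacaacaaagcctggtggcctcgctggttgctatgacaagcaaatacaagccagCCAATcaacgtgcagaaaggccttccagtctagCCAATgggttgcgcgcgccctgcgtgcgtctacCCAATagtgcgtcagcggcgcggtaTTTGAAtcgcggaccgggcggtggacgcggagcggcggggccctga
Cdk1 (chr10:69352863-69353162, minus strand): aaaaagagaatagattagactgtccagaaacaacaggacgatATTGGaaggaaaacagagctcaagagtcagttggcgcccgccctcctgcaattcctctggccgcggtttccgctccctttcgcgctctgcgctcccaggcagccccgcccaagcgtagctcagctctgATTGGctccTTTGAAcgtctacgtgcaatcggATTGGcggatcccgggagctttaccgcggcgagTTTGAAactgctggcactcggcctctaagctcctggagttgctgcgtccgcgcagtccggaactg
Cenpf (chr1:189688037-189688336, minus strand): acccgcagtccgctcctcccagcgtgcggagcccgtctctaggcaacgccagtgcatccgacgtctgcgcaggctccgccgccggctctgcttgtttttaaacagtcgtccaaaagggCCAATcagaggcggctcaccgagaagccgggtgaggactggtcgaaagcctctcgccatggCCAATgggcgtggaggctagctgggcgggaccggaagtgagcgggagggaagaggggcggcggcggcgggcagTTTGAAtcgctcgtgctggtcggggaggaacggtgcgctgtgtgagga
Mki67 (chr7:135716330-135716629, minus strand): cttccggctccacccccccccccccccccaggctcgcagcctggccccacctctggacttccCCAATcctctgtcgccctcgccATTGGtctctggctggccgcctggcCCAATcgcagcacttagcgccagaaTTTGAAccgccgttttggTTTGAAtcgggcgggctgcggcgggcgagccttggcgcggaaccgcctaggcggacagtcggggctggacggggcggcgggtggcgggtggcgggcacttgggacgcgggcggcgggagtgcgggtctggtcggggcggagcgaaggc
Ccnb2 holds 3 runs of CCAAT and Cdk1 holds 3 runs in the reverse orientation, and every one of these 4 promoters holds TTTGAA.

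The libraries held 6072984 to 24085812 reads assigned to genes, recovered from the deposited values as described under processing. Of 23 T cell identity genes, 22 averaged at least 10 normalized counts in exosome libraries and 22 in untreated libraries, and the T cell receptor chain gene Cd3e had a median of 3523 in exosome and 3532 in untreated libraries. Of 7 B cell genes 2 averaged at least 10 in each arm, and the list summed to 15.6 to 147 in exosome and 17.2 to 109.6 in untreated libraries, with Ms4a1 at a median of 0 in both. Of 10 macrophage and dendritic cell genes 3 averaged at least 10 in each arm, and the list summed to 5704 to 10180 in exosome and 5573 to 10163 in untreated libraries. The macrophage genes Csf1r and Adgre1 were at medians of at most 1.45. The sum was thus carried by other genes of the list, and these 2 do not stand for it. Tyrp1, a pigment enzyme gene of melanocytes, was at 13.2 to 76.3 normalized counts in exosome libraries and at 0 in all untreated libraries. Its exosome values were 13.2 to 18.8 in batch 1 and 36.0 to 76.3 in batch 2. Of 10 melanocyte genes 5 averaged at least 10 in exosome libraries and 1 in untreated libraries. Genes at 0 in untreated cells can enter a test only through exosome libraries, so calls in this list are not counted. Several libraries stood apart in 3 ways that bear on what follows. Genes at 0 made up 15.7% of the table in untreated 4 h replicate 1 and 22.0% in exosome 8 h replicate 3. In the other libraries they made up 27.8% to 39.9%. The skeletal muscle actin gene Acta1 was over 50 normalized counts in 8 libraries, of which 5 were exosome (0.5 h replicates 1 and 3, 2 h replicate 2, 4 h replicates 1 and 2) and 3 untreated (2 h replicate 2, 8 h replicates 1 and 2). The summed level of 15 muscle genes was 718 to 4749 in exosome and 548 to 2836 in untreated libraries. Separately, an index of long against short transcripts was computed for each library. It is the median deviation, on the log2 scale, of 1319 genes with coding sequences of at least 3000 bases minus that of 2895 genes with coding sequences of at most 1000 bases, none of them a member. It was between -0.05 and 0.19 in 23 libraries. It was -0.31 in exosome 2 h replicate 2, -0.30 in exosome 4 h replicate 1, -0.34 in untreated 2 h replicate 1, -0.65 in untreated 8 h replicate 1 and -0.39 in untreated 8 h replicate 2. Untreated 8 h replicate 3 stood at 0.01.

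As a group the 40 genes were well expressed and moved little. They took 0.563% to 0.737% of each library's reads, and the fewest reads behind any single value were 88. From the lowest to the highest library a gene's normalized count changed by 1.23-fold to 2.90-fold, with a median over the members of 1.53-fold. Per kilobase of transcript the highest mean level over all libraries was that of Birc5 (survivin, which targets the chromosomal passenger complex) at 4283 normalized counts per kb. It was followed by Cenpa, the centromeric histone H3 variant, at 2407, Top2a, the topoisomerase that untangles sister chromatids, at 2035, and Ube2c, the APC/C's ubiquitin-conjugating enzyme, at 1971. At the low end stood Cdc25c at 186 and the chromokinesin Kif4 at 236 normalized counts per kb. The length used was that of the longest annotated transcript among those with the gene's longest coding sequence. This order depends on that choice. Mad2l1, with 615 coding bases, was divided by 7557 bases and stood at 397. The members' share of all reads averaged 0.658% ± 0.025 in exosome and 0.668% ± 0.035 in untreated cells at 0.5 h (SD, n = 3 each). At 2 h it was 0.668% ± 0.056 in exosome and 0.663% ± 0.055 in untreated cells. At 4 h it was 0.684% ± 0.043 in exosome and 0.689% ± 0.061 in untreated cells, and at 8 h 0.697% ± 0.047 in exosome and 0.651% ± 0.087 in untreated cells. The 0 h cells stood at 0.701% ± 0.010 (SD, n = 4). The exosome and untreated ranges overlapped at each time.

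The first question was whether exosomes changed mitotic gene expression in these T cells. No member passed the test at any of the 4 times, and none passed it for the mean of the 4 times. Changes were tested with limma on log2(normalized count + 1) over all 28 libraries, with a mean for each group, a batch term and Benjamini-Hochberg adjustment over 14828 genes, and a gene is called where the adjusted p is below 0.05. In the same comparisons, exosome against untreated, 0.243% of all tested genes were called at 0.5 h, 0.189% at 2 h, 0.155% at 4 h, 0.452% at 8 h and 0.459% for the mean effect. At an unadjusted p below 0.05 the counts of members were 0 at 0.5 h, 0 at 2 h, 0 at 4 h, 15 at 8 h and 1 for the mean effect. edgeR's quasi-likelihood test on the recovered reads also called 0 in each of these comparisons, and DESeq2 called 0 in each but 8 h, where it called 1.

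The mean exosome effect on the 40 genes ran from -0.07 (Mad2l1) to 0.12 (Espl1) on the log2 scale, with a median of 0.02, and the 95% confidence intervals of all members lay between -0.22 and 0.26. Over all 14828 genes the median was -0.00. Among the 9 genes of the cyclin-CDK trigger the median was -0.01, and the 3 mitotic kinases Plk1, Aurka and Nek2 had a median of 0.03. The spindle checkpoint genes had a median of -0.02, and the genes of the spindle motors and microtubule proteins one of 0.02. Medians were 0.03 for the 3 genes of APC/C and separase, 0.02 for the 5 of the centromere and kinetochore, 0.03 for the 4 of the chromosomal passenger complex and 0.06 for Top2a and Mki67. The lowest unadjusted p-values belonged to Espl1, which encodes separase, the protease that cuts cohesin (0.12 ± 0.06 SE, limma adjusted p = 0.973), and to Foxm1, the transcription factor that drives G2 genes (0.08 ± 0.04 SE, limma adjusted p = 0.973).

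**Figure D1:**
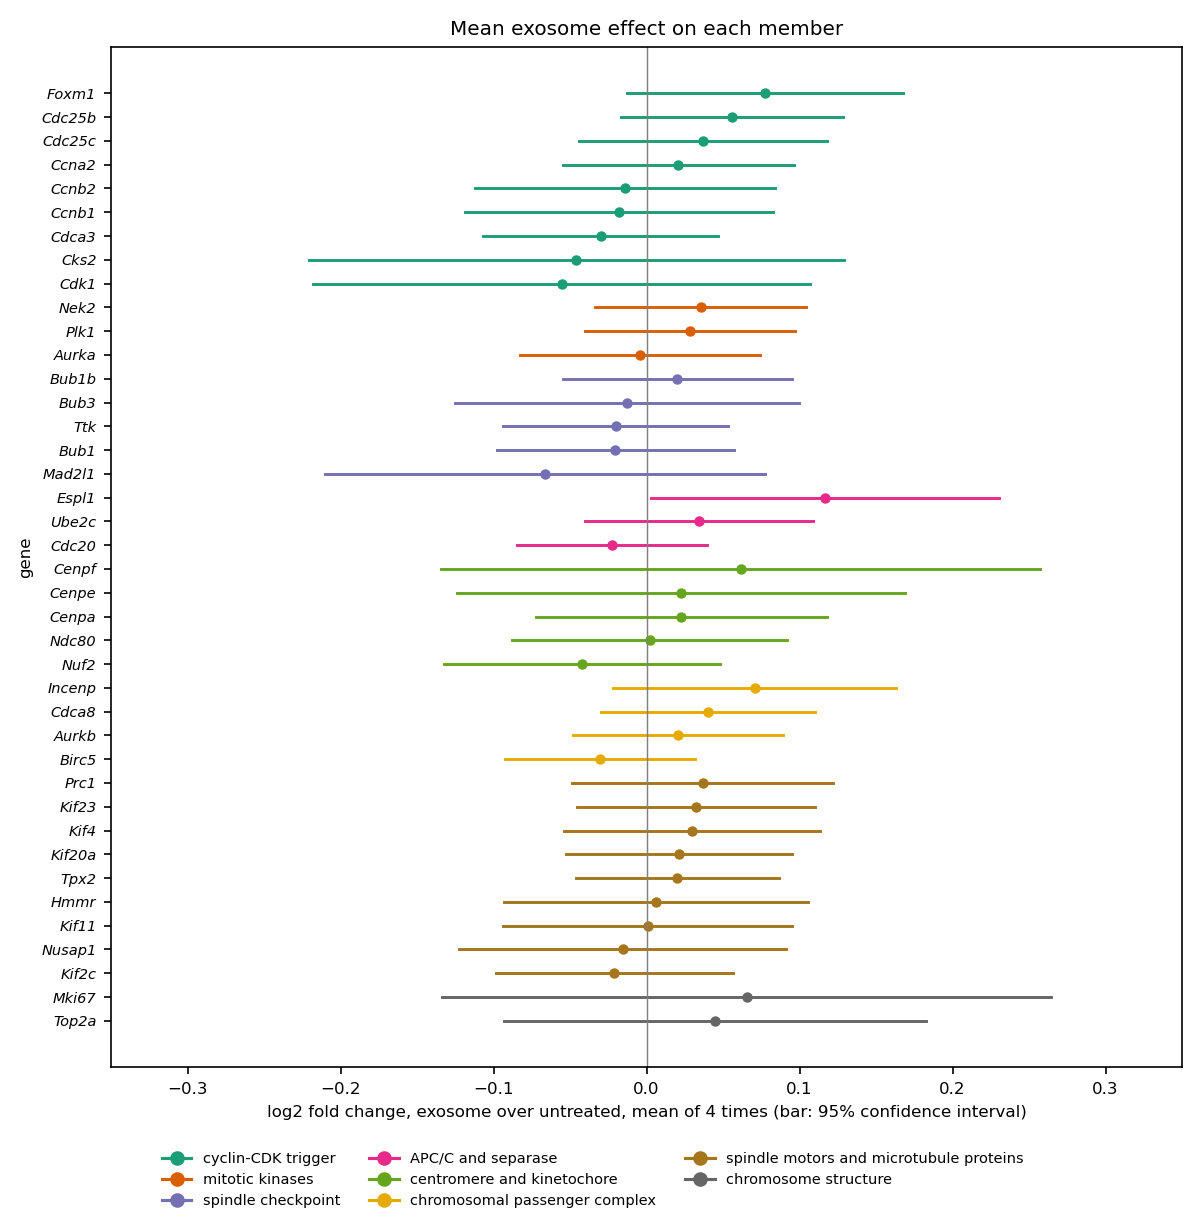
Mean exosome effect on each member, as the log2 fold change of exosome over untreated cells averaged over 4 times (x axis) with its 95% confidence interval, the genes grouped by role (y axis). Every point lies between -0.07 and 0.12, and no member was called.

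Ccnb1, which encodes cyclin B1, had 844, 871 and 864 normalized counts in exosome cells at 0.5 h, against 949, 841 and 867 in untreated cells. At 2 h it had 978, 1063 and 937 in exosome cells, against 1075, 869 and 959 in untreated cells. At 4 h the values were 1119, 890 and 938 in exosome cells, against 999, 828 and 975 in untreated cells, and at 8 h 818, 871 and 924 in exosome cells, against 1037, 965 and 884 in untreated cells. The groups overlapped at every time, and at 0 h the gene stood at 1009, 844, 841 and 809. Plk1, the polo-like kinase, averaged 1710 ± 158 normalized counts in exosome and 1653 ± 208 in untreated cells at 0.5 h, and 1690 ± 246 in exosome and 1723 ± 208 in untreated cells at 2 h (SD, n = 3 each). It averaged 1930 ± 322 in exosome and 1881 ± 201 in untreated cells at 4 h, and 1868 ± 187 in exosome and 1802 ± 327 in untreated cells at 8 h. The standard deviations exceeded the differences throughout. Cdk1 averaged 2124 ± 66.2 in exosome and 2184 ± 155 in untreated cells at 0.5 h, 2671 ± 773 in exosome and 2513 ± 435 in untreated cells at 2 h, and 2606 ± 550 in exosome and 2279 ± 216 in untreated cells at 4 h. The highest libraries at 2 h were exosome replicate 2 at 3563 and untreated replicate 1 at 3015, which are among the libraries with a low index. Mki67 averaged 11039 ± 1546 in exosome and 11658 ± 1852 in untreated cells at 0.5 h, 11419 ± 3569 in exosome and 11172 ± 2781 in untreated cells at 2 h, and 10234 ± 1864 in exosome and 11897 ± 2189 in untreated cells at 4 h. Foxm1 averaged 3083 ± 237 in exosome and 2926 ± 301 in untreated cells at 0.5 h, 2812 ± 279 in exosome and 2811 ± 535 in untreated cells at 2 h, and 3058 ± 270 in exosome and 3012 ± 198 in untreated cells at 4 h.

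**Figure D2:**
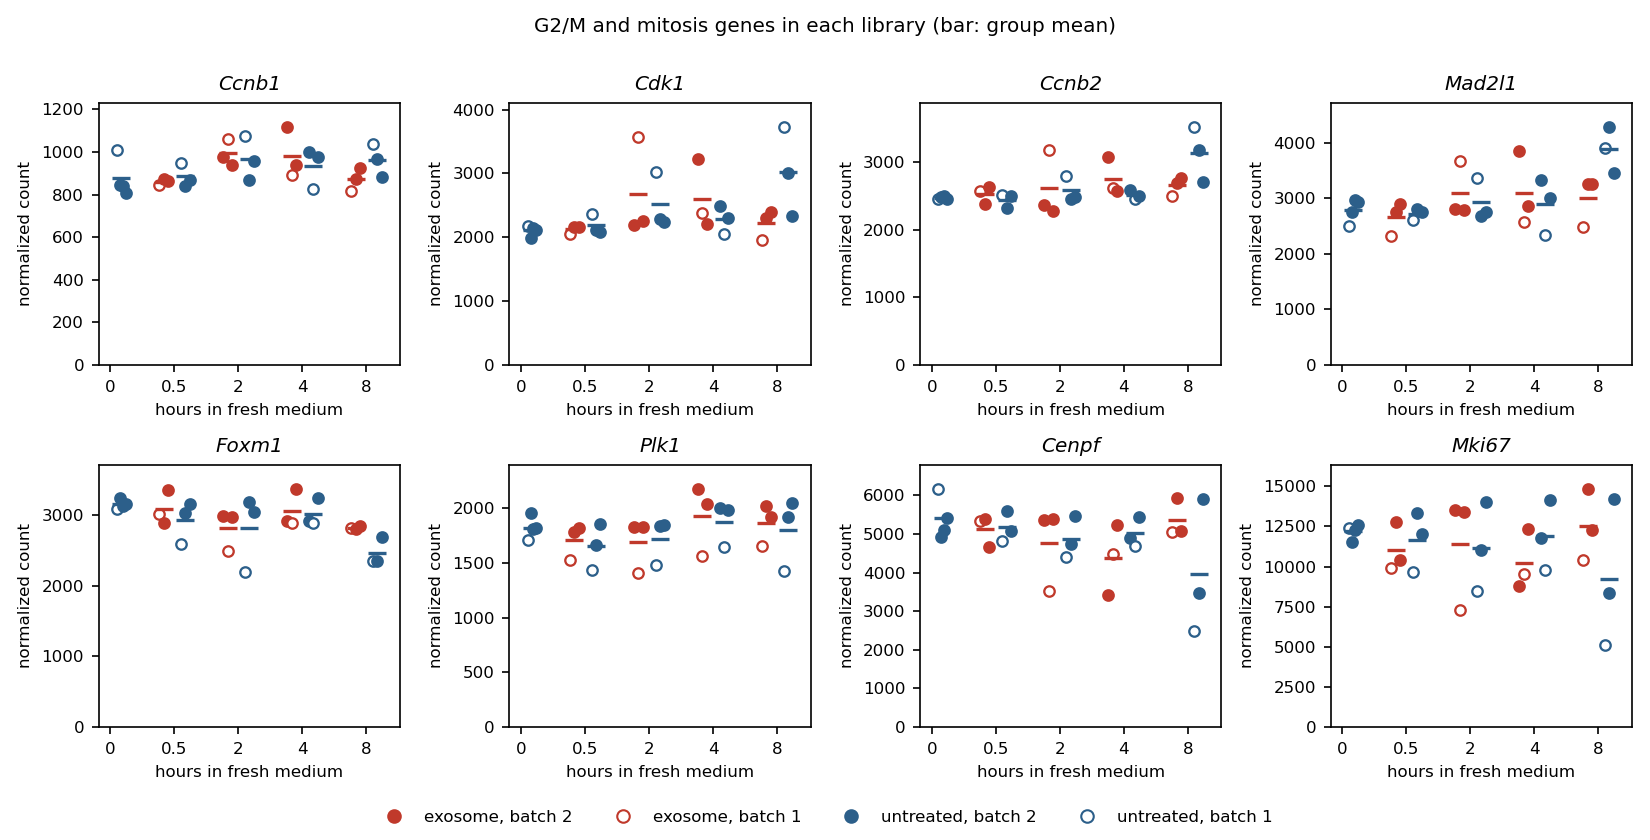
Normalized counts of 8 members (y axis, from 0) by hours in fresh medium (x axis), exosome cells in red left of untreated cells in blue, with a point for each library, open for batch 1, and a bar at each group mean. The widest scatter is among the untreated 8 h libraries, where Mki67 is at 5117, 8349 and 14210.

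At 8 h the differences between exosome and untreated cells were larger than at the earlier times and ran both ways, but no member was called. They ranged from -0.42 for Cdk1 to 0.55 for Mki67 on the log2 scale, with a median over the members of 0.06, against 0.00 over all tested genes. Mki67, which encodes the mitotic chromosome surfactant Ki-67, had 10397, 14850 and 12252 normalized counts in exosome cells, against 5117, 8349 and 14210 in untreated cells. Its log2 fold change was 0.55 ± 0.19 (SE, limma adjusted p = 0.0956). Cenpf, a kinetochore protein of late G2, had 5044, 5934 and 5077 in exosome cells, against 2482, 3474 and 5916 in untreated cells. For both genes the untreated range reached into the exosome range through 1 high library. Cdk1, the mitotic kinase itself, had 1962, 2302 and 2389 in exosome cells, against 3732, 3001 and 2330 in untreated cells. Foxm1 had 2820, 2796 and 2839 in exosome cells, against 2353, 2344 and 2692 in untreated cells, and these ranges did not touch, although its difference was not called. Cdca3, an adaptor in the destruction of the Cdk inhibitor Wee1, had the lowest unadjusted p-value. It had 1568, 1449 and 1495 in exosome cells, against 2031, 1773 and 1524 in untreated cells, and changed by -0.23 ± 0.07 (SE, limma adjusted p = 0.0835). DESeq2 called it (-0.24, DESeq2 adjusted p = 0.0417, beside 6.43% of all genes), and limma called it when exosome 4 h replicate 1 was left out (limma adjusted p = 0.0421). That library is in neither 8 h group and bears on the comparison only through the shared spread and the batch term. The share of all genes called in that limma fit is not given here, so no weight is put on the limma call.

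The 8 h comparison depended on which untreated 8 h libraries were kept. Replicate 3 had an index of 0.01 and Acta1 at 3.57 normalized counts. Replicates 1 and 2 had indices of -0.65 and -0.39 and Acta1 at 202 and 206. With all libraries and the index added as a covariate, 0 members were called at 8 h, beside 0.236% of all tested genes. Without replicate 3, which leaves replicates 1 and 2, 18 of the 40 members were called, beside 26.3% of all tested genes. Of these, 12 were higher in exosome cells, among them Mki67 and Cenpf, and 6 were lower, among them Cdk1 and Mad2l1. The shares of all genes by direction in that fit are not given here, so the split is not read as a result about the members. The exosome effect could also be tested for a difference between the 4 times. No member passed that test, the background was 0% of all genes, and the unadjusted p was below 0.05 for Cdca3 and just above it for Mki67 (limma adjusted p = 0.367 and 0.395). Leaving out untreated 8 h replicate 3 moved that count to 6 members, beside 9.08% of all genes.

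The second question was how these genes moved over time in fresh medium without exosomes. At 0.5, 2 and 4 h against 0 h no member was called, where 0.189%, 1.83% and 1.19% of all genes were. At an unadjusted p below 0.05 these 3 comparisons held 0, 5 and 0 members, and edgeR and DESeq2 called 0 in each. The smallest p-values at 2 h were those of the checkpoint kinase gene Ttk (-0.20 ± 0.07 SE, limma adjusted p = 0.139) and of Aurkb, the kinase of the chromosomal passenger complex (-0.18 ± 0.06 SE, limma adjusted p = 0.160). At 8 h against 0 h, 12 of the 40 members were called, 6 higher and 6 lower, where 31.7% of all tested genes were called, 15.9% higher and 15.8% lower. The members' share was thus 30.0%, close to that background, and their median change was -0.03, against -0.01 over all genes.

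By role, 3 of the 9 cyclin-CDK trigger genes rose at 8 h and 1 fell. Cdk1 had 3732, 3001 and 2330 normalized counts at 8 h, against 2173, 1986, 2151 and 2117 at 0 h, and rose by 0.48 ± 0.15 on the log2 scale (SE, limma adjusted p = 0.0166). Ccnb2, which encodes the Golgi-associated cyclin B2, had 3528, 3178 and 2712 at 8 h, against 2456, 2484, 2499 and 2455 at 0 h, and rose by 0.33 ± 0.09 (SE, limma adjusted p = 0.00890). All 3 late libraries stood above the 4 early ones for both genes, and for both genes replicate 1 was highest. Cdca3 rose by 0.31 ± 0.07 (SE, limma adjusted p = 0.00345). Foxm1 had 2353, 2344 and 2692 at 8 h, against 3077, 3236, 3119 and 3155 at 0 h, and fell by 0.34 on the log2 scale (limma adjusted p = 0.00455), with the groups apart. Ccnb1 was not called (0.13 on the log2 scale), nor were Ccna2 (cyclin A2), Cks2, Cdc25b and Cdc25c.

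Among the 5 spindle checkpoint genes, Mad2l1 and Bub3, subunits of the mitotic checkpoint complex, rose. Mad2l1 had 3911, 4290 and 3464 at 8 h, against 2499, 2746, 2977 and 2941 at 0 h, a rise of 0.49 ± 0.13 (SE, limma adjusted p = 0.00860). Bub3 rose by 0.33 ± 0.10 (SE, limma adjusted p = 0.0189). Bub1, Bub1b and Ttk were not called. None of the 3 mitotic kinases was called, Plk1 being at 1432, 1925 and 2049 at 8 h, against 1709, 1959, 1813 and 1819 at 0 h. Of APC/C and separase only Espl1 was called, at 1748, 2070 and 2295 normalized counts at 8 h, against 2694, 2740, 2560 and 2576 at 0 h, with the groups apart.

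In the centromere and kinetochore group the 2 called genes went opposite ways. Cenpf fell by 0.52 on the log2 scale (limma adjusted p = 0.0289), and its 0 h values of 6169, 4932, 5090 and 5414 enclosed 8 h replicate 3 at 5916. Ndc80, the microtubule-binding subunit of the kinetochore, had 1019, 1037 and 1015 at 8 h, against 880, 831, 853 and 937 at 0 h, and rose by 0.23 ± 0.08 (SE, limma adjusted p = 0.0383). Incenp, the scaffold of the chromosomal passenger complex, fell by 0.22 (limma adjusted p = 0.0492), and of the 9 spindle genes Kif23, the kinesin of the central spindle, fell by 0.26 (limma adjusted p = 0.00879). Mki67, at 5117, 8349 and 14210 at 8 h, against 12383, 11553, 12308 and 12595 at 0 h, fell by 0.49 on the log2 scale (limma adjusted p = 0.0414). Replicates 1 and 2 at 8 h stood below every 0 h library and replicate 3 stood above them. Top2a was not called, at 6483, 9510 and 13138 at 8 h, against 11978, 10909, 10846 and 11181 at 0 h.

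The called members split by the length of their coding sequence. The 6 that rose at 8 h had 615 to 1926 coding bases, and the 6 that fell had 2271 to 9531. Over the 40 members the log2 change at 8 h against 0 h went with coding length with a Pearson r of -0.72 (Spearman rho -0.73). The same measure over 11556 other genes gave -0.38 (rho -0.49). These are descriptions across genes of the same libraries, and genes are not independent replicates. The 9 members with at most 1000 coding bases had a median change of 0.16, and the 9 with at least 3000 had -0.24. The medians of other genes were of similar size, 0.19 over 3759 short and -0.26 over 1618 long ones, so the split was not particular to the members. In exosome against untreated cells at 8 h the sign was turned, with a Pearson r of 0.79 (rho 0.78) over the members and 0.35 (rho 0.52) over the other genes. That comparison shares its untreated 8 h libraries with the one before. In exosome cells alone, 8 h against 0.5 h, r was 0.19 (rho 0.20) over the members and -0.03 (rho -0.05) over the other genes.

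**Figure D3:**
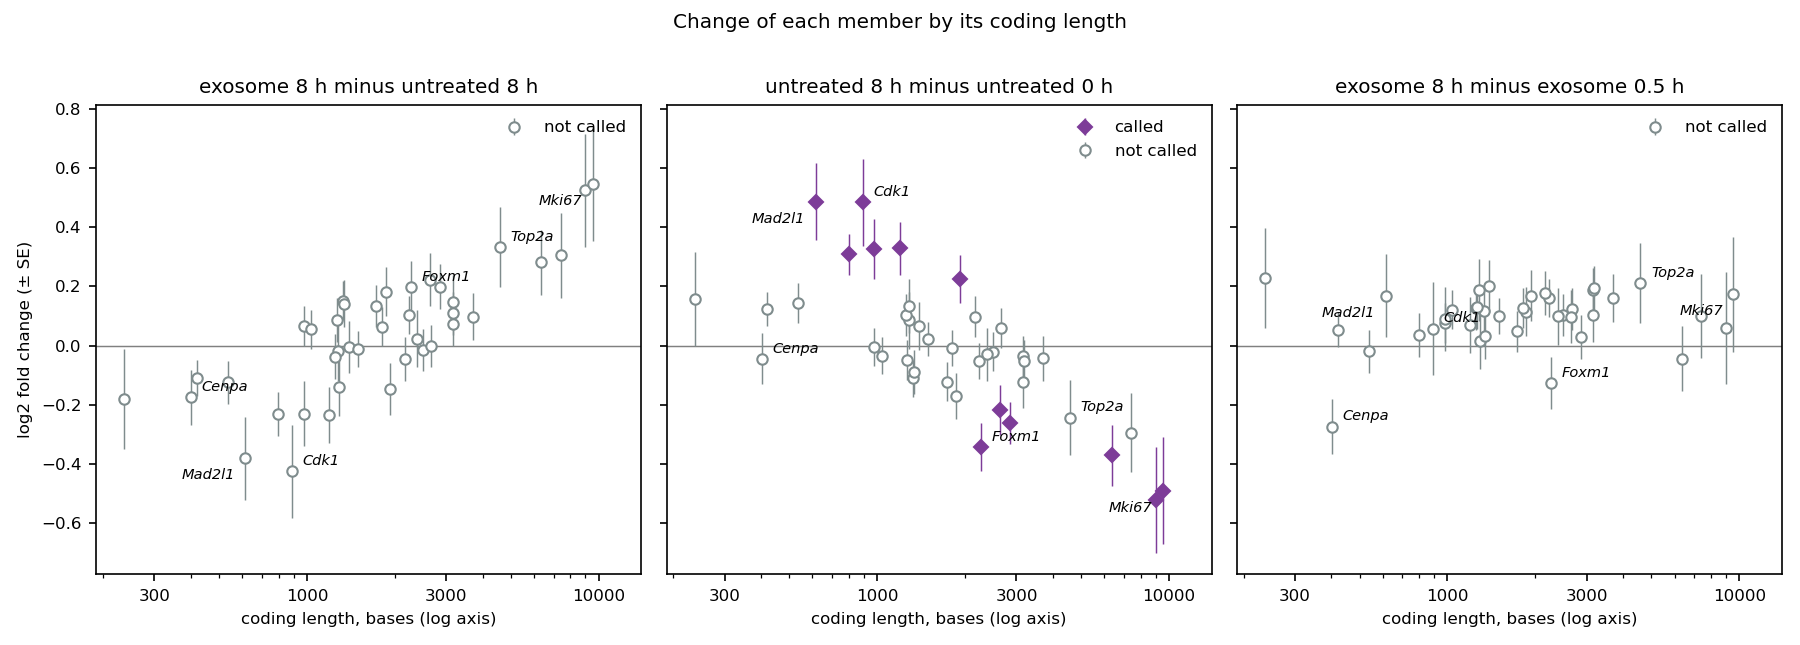
Log2 fold change with its standard error (y axis) against coding length (x axis, log axis) for the 40 members in 3 comparisons, called members as filled diamonds. Most short members lie above and all 9 long ones below 0 at 8 h in untreated cells, with the opposite slope in exosome against untreated cells at 8 h and little slope in exosome cells between 0.5 and 8 h.

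The 5 libraries with the lowest difference between long and short members were the 5 with the lowest index among the other genes. The members' own difference, the median deviation of the 9 long members minus that of the 9 short ones, was -0.77 in untreated 8 h replicate 1, -0.37 in replicate 2 and 0.22 in replicate 3. It was -0.45 in exosome 2 h replicate 2, -0.37 in exosome 4 h replicate 1 and -0.34 in untreated 2 h replicate 1. In the other libraries it lay between -0.12 and 0.24. The libraries fall into separate clusters on the index, so no correlation across them is given. With the index added as a covariate, an alternative chosen after the data were seen, the calls at 8 h against 0 h fell to 0 of 40 members, and all called genes to 35 of 14828 (0.236%). Under that covariate Cdk1, Bub3, Mki67, Cenpf and Incenp changed sign. Acta1 was at 202 and 206 normalized counts in untreated 8 h replicates 1 and 2 and at 3.57 in replicate 3. Without the 8 libraries high in Acta1, which leaves untreated 8 h with 1 library whose spread is taken from the other groups, 1 member was called, Cenpa, lower at 8 h, beside 2.55% of all genes. The count was 3 without untreated 8 h replicate 1 (15.9% of all genes), 4 without replicate 2 (14.2%) and 16 without replicate 3 (38.3%). In batch 2 alone 9 members were called, 7 higher and 2 lower, beside 26.6% of all genes, 13.6% higher and 13% lower.

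**Figure D4:**
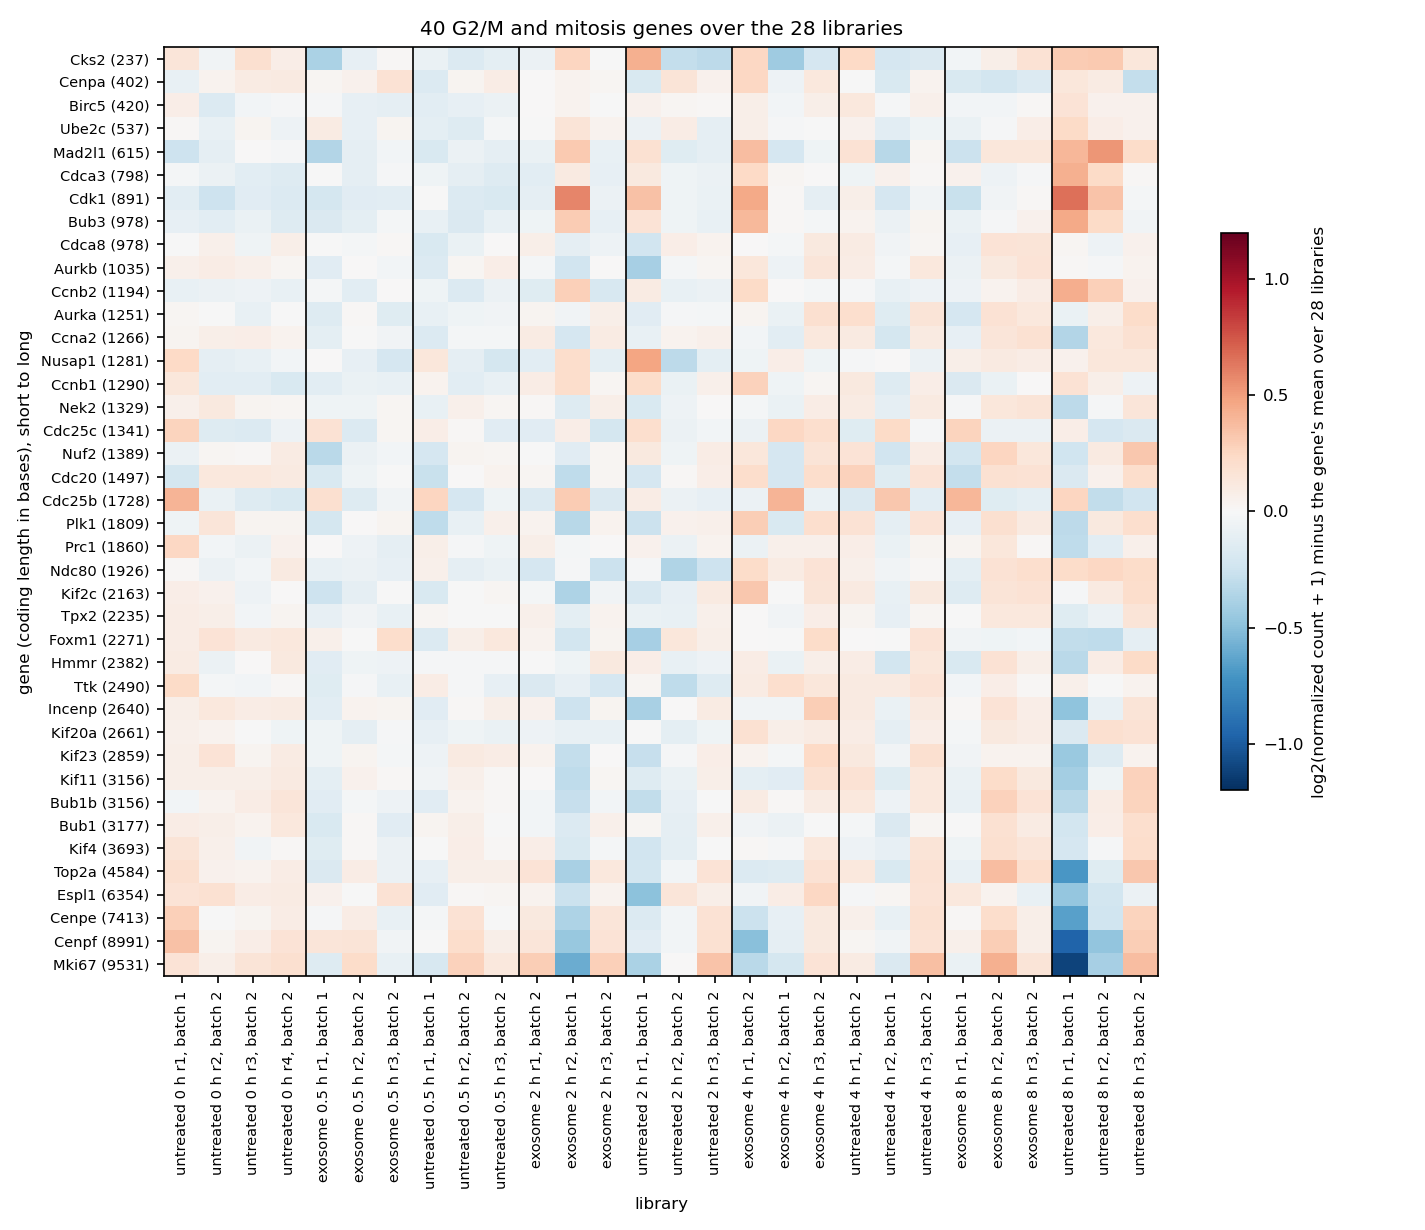
Deviation of each member from its own mean over 28 libraries (colour, log2), with genes ordered from short to long coding sequence (y axis) and libraries by time, exosome before untreated (x axis). Untreated 8 h replicate 1 is red at the short end and blue at the long end, replicate 2 less so, and replicate 3 shows red for Mki67, Cenpf and Top2a.

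**Figure D5:**
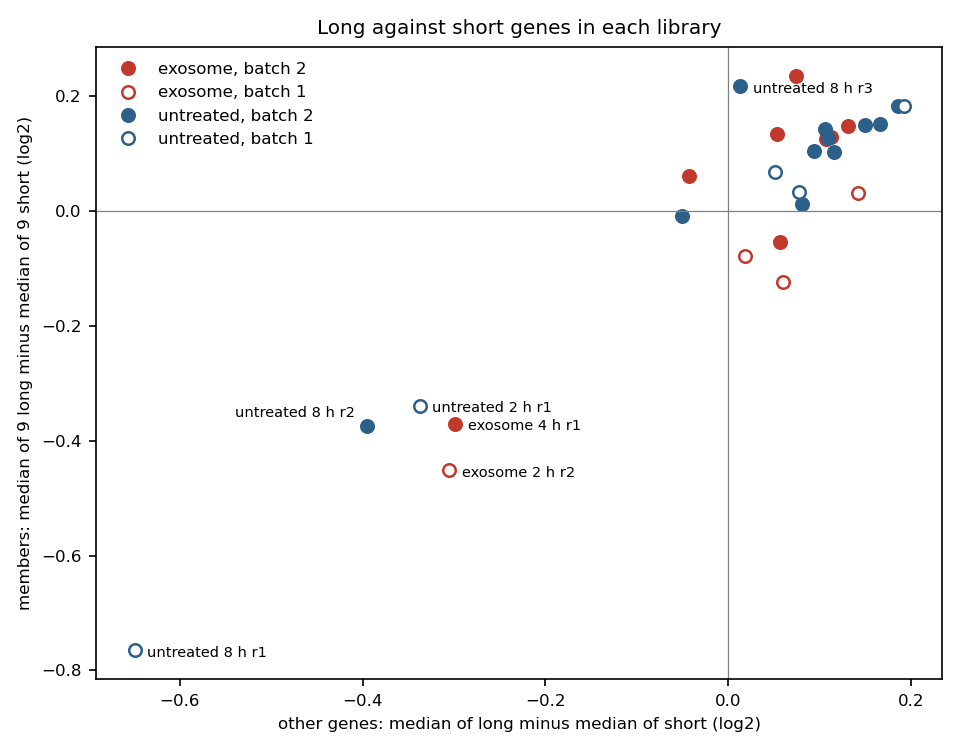
Long minus short members (y axis, log2) against long minus short non-member genes (x axis, log2), a point for each library, exosome in red and untreated in blue, open for batch 1. Untreated 8 h replicate 1 is lowest on both axes (-0.77 and -0.65), and 4 more libraries lie apart from the rest at the lower left.

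Against 0.5 h in place of 0 h, 10 members were called in untreated cells at 8 h (28% of all genes were called). That comparison shares its untreated 8 h libraries with the one against 0 h, so members called in both are not separate evidence. With the index as covariate 0 members were called in it, beside 4.06% of all genes. In the main fit the 8 members that rose were Mad2l1, Cdk1, Ccnb2, Cdca3, Bub3, Ndc80, Ube2c and Birc5, and Foxm1 and Kif23 fell. Of all genes, 13.5% were called higher and 14.5% lower. Ube2c rose by 0.21 ± 0.07 and Birc5 by 0.19 ± 0.06 (SE, limma adjusted p = 0.0304 and 0.0230). A test over all 5 untreated times called 7 members, Ndc80, Cdca3, Kif23, Foxm1, Ccnb2, Mad2l1 and Ttk, where 21.6% of all genes were called. With the index as covariate 1 of them was called, Ndc80 (limma adjusted p = 0.0194, beside 8.44% of all genes).

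Ndc80 was followed through every time, since it was the member called under the covariate. In untreated cells it had 864, 677 and 735 normalized counts at 2 h, against 880, 831, 853 and 937 at 0 h, and in exosome cells 760, 863 and 727 at 2 h. The 2 h values of the batch 2 libraries lay below every 0 h value, while the batch 1 value of each arm lay among them. The 2 h decrease in untreated cells was not called over all libraries, but it was called in batch 2 alone (-0.31 ± 0.06 SE, limma adjusted p = 0.00966, beside 3.34% of all genes) and with the index as covariate (-0.28 ± 0.07 SE, limma adjusted p = 0.0224, beside 3.2%). At 4 h it had 1014, 936 and 975 in exosome cells, against 911, 846 and 883 in untreated cells. These groups did not overlap, and the difference of 0.15 ± 0.09 (SE, limma adjusted p = 0.920) was not called.

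In exosome cells at 8 h against 0.5 h no member was called, where 2.33% of all genes were. At an unadjusted p below 0.05 there were 6, and edgeR and DESeq2 called 0. Of the 40 log2 differences, 36 were above 0, with a median of 0.10, against 0.00 over all genes. The 4 below 0 were those of Cenpa, Foxm1, Espl1 and Ube2c. Cenpa had 3091, 3020 and 3128 normalized counts at 8 h, against 3572, 3638 and 3970 at 0.5 h, with the groups apart, and differed by -0.27 ± 0.09 (SE, limma adjusted p = 0.109). Bub1b, which encodes the checkpoint protein BubR1, had 2651, 3409 and 3156 at 8 h, against 2568, 2779 and 2699 at 0.5 h, with overlap in the batch 1 library, and differed by 0.19 ± 0.07 (SE, limma adjusted p = 0.165). In batch 2 alone 7 members were called, beside 13.5% of all genes, 4.91% higher and 8.56% lower. Nuf2, Bub1b, Nusap1, Ccna2, Cdc20 and Ndc80 were higher at 8 h by 0.19 to 0.27 on the log2 scale, and Cenpa was lower by -0.31. With the index as covariate Bub1b was called higher and Cenpa lower, beside 8.34% of all genes. Leaving out untreated 8 h replicate 3 called Cenpa (beside 3.4% of all genes), and leaving out exosome 8 h replicate 1 called Ndc80 (beside 7.85%).

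More members were called for batch than for any treatment or time, but these comparisons differ in precision. The median SE over the members was 0.04 for batch and for the mean exosome effect. It was 0.08 for exosome against untreated at 8 h and for untreated 8 h against 0 h. Log2 changes ran from -0.44 to 0.43 for batch and from -0.52 to 0.49 for untreated 8 h against 0 h, so the counts do not rank their sizes. Between batch 1 and batch 2, 27 of the 40 members were called, 4 higher and 23 lower in batch 1, where 57.6% of all genes were called, 29.2% higher and 28.5% lower. The median over the members was -0.12, against 0.01 over all genes. Cdc25b, the phosphatase that starts Cdk1 activation, ranged from 2111 to 2645 normalized counts in batch 1, with a median of 2452, and from 1622 to 1936 in batch 2, with a median of 1801, without overlap. It was higher in batch 1 by 0.43 ± 0.03 (SE, limma adjusted p = 9.73e-11). Cdc20, the APC/C activator, ranged from 1667 to 1857 in batch 1 and from 1987 to 2484 in batch 2, and was lower in batch 1 by 0.32. The other large differences were those of Mki67 (-0.44), Plk1 (-0.30), Top2a (-0.29), Cdc25c (0.27), Nuf2 (-0.25) and Incenp (-0.23). The summed B cell list was 77.5 to 147 in batch 1 and 15.6 to 37.9 in batch 2, and the summed macrophage and dendritic cell list was 5573 to 8236 in batch 1 and 8563 to 10180 in batch 2. The T cell identity list summed to 372853 to 605934 in batch 1 and 284639 to 374843 in batch 2. In untreated libraries the melanocyte list summed to 41.8 to 83.7 in batch 1 and 112.4 to 167.5 in batch 2. Their part in the batch difference was not tested. Since each group holds 1 library of batch 1, the batch term does not stand for any group.

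Other genes of the cycle, taken from lists compiled by function, were read in the same fits. In the mean exosome effect 0 of 25 tested G2/M regulators, 0 of 18 APC/C genes, 0 of 37 other centromere and kinetochore genes, 0 of 22 condensin and cohesin genes and 0 of 37 other spindle and cytokinesis genes were called. Of 45 genes of G1/S and DNA replication 1 was called, E2f2, where 0.459% of all genes were. At 8 h it averaged 7.04 ± 4.46 normalized counts in exosome and 0.570 ± 0.495 in untreated cells (SD, n = 3 each). That is the level of a few reads, since 3 reads correspond to 1.88 to 7.47 normalized counts. A gene so low in untreated cells may have entered the test through exosome libraries alone, so no weight is put on this call. Among untreated cells at 8 h against 0 h, where 31.7% of all genes were called, 15.9% higher and 15.8% lower, the replication list had 15 of 45 called, all 15 higher, with Gins2, a subunit of the replicative helicase, at 0.59 ± 0.12 (SE, limma adjusted p = 0.0023) and the thymidylate synthase gene Tyms at 0.44 ± 0.11 (SE, limma adjusted p = 0.00656). The APC/C list had 9 of 18 called, 8 higher, among them Pttg1 (securin) at 0.43, while Ube2s, which extends ubiquitin chains on APC/C substrates, was at -0.48. The other centromere and kinetochore genes had 10 of 37 called, 6 higher, led by Cenps at 0.70. The other spindle and cytokinesis genes had 13 of 37 called, 7 higher, with Tuba1c at 0.50 and Cit, the citron kinase of cytokinesis, at -0.65. Condensin and cohesin had 3 of 22 called, of which Ncaph2 was higher and Nipbl (-0.46) and Ncapd2 lower, and the G2/M regulators had 8 of 25 called, 3 higher, with the Cdk subunit gene Cks1b at 0.45. With the index as covariate each of these 6 lists had 0 called at 8 h against 0 h, where 0.236% of all genes were called.

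Across the 9 group means the members did not share a single course. The mean of their standardized levels was 0.38 at 0 h. It was -0.66 in exosome and -0.44 in untreated cells at 0.5 h, -0.35 in exosome and -0.43 in untreated cells at 2 h, 0.56 in exosome and 0.28 in untreated cells at 4 h, and 0.62 in exosome and 0.03 in untreated cells at 8 h. Single members correlated with that mean with Pearson r from -0.35 to 0.92, and 3 were below 0. The 5 other genes most like it over the 9 groups were Ect2 (r = 0.97), the exchange factor that starts cytokinesis, Aco1 (0.96), Clpb (0.95), Eftud2 (0.95) and Cep68 (0.95).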

How the data were processed

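CTLL2 RNA was extracted with TRIzol, kept where its integrity number was above 8, and sequenced as paired reads, per the labels' protocols. Of upstream software, the submitters' processing notes list STAR 2.4.2, featureCounts 1.5.0, CASAVA 1.8.4, R 3.3.2, DESeq2 and the build GRCm38.p2. The deposited values are a signal, that is, gene counts scaled by a size factor for each library by the authors, in 1 table of 30608 genes and 28 libraries. Each column was divided by the value of 1 read, and 100% of the quotients were whole within 0.01. In 1 library, untreated 0.5 h replicate 2, that value is close to 1 (1.005), and its column was divided by it like the others. The size factors were 0.401 to 1.59, and 3 reads correspond to 1.88 to 7.47 normalized counts, a limit of counting error only.

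Of the identifiers 30403 were in the GENCODE M21 annotation, which gave symbols and the longest coding sequence. The test was limma 3.58.1 in R 4.3.3 on 14828 genes, those that reached 10 normalized counts in 3 libraries, all 40 members among them, with a pseudocount of 1, a mean for each of the 9 groups, a batch term and 18 residual degrees of freedom. Alternatives were edgeR 4.0.16 and DESeq2 1.42.0 on the recovered reads, other scalings, filters and pseudocounts, a replicate block, no batch term, batch 2 alone and leaving out libraries. The fits were tested on simulated data. Members and lists were chosen with earlier results of these data known. Values by library or group are given for Ccnb1, Cdk1, Plk1, Foxm1 and Mki67 in any case, and beyond these for called members with the largest change in a comparison (8 at most) or, with none called, the lowest 2 p-values. From each other list at most 4 called genes are named. Further members, such as Ndc80, Cenpa, Cenpf, Ttk and those called under 1 alternative, are named after their values were seen.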

Additional observations from a re-analysis of the deposited data

Results flagged for a closer look

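In the untreated 0 h group of 4 libraries, each member was examined for 1 library far from the other 3, measured as its gap to the nearest library over the whole range. Of the 40 members 3 passed Dixon's 95% critical value, which chance passes in about 1 group in 20. Cdc25b was at 2645 normalized counts in untreated 0 h replicate 1, against 1749 to 1882 in the other 3. Cdc20 was at 1774 in the same library, against 2211 to 2248 in the other 3. That library is the batch 1 library of its group, and the values of Cdc25b and Cdc20 in the 2 batches, given above, did not overlap in all 28 libraries either. Kif11, which encodes the kinesin that pushes spindle poles apart, was at 3801 in replicate 4, against 3686 to 3698 in the other 3, a gap that is small beside its range over all libraries of 2654 to 4260.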

How the results depend on the processing

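The counts of members called for exosome against untreated at 0.5 h, 2 h, 4 h and for the mean effect were 0 under all 15 other settings and all 28 fits that each left out 1 library. The 8 h count was 1 with DESeq2 and 0 in the other 14 settings, and 0 to 18 over the fits without 1 library. Untreated 2 h against 0 h gave 1 in batch 2 alone and 1 with the long-minus-short index as covariate. Untreated 8 h against 0 h (12, beside 31.7% of all genes) gave 7 without a batch term (12.4%), 1 without the libraries high in Acta1 (2.55%) and 0 with the index (0.236%), and 3 to 16 over the fits without 1 library. Untreated 8 h against 0.5 h (10, beside 28%) gave 4 without a filter (9.89%), 3 without a batch term (9.1%), 1 without the Acta1 libraries (3.72%) and 0 with the index (4.06%). It gave 1 to 16 without 1 library: 5 (19.8%), 3 (13%) and 6 (19.2%) without untreated 0.5 h replicates 1, 2 and 3, and 2 (14.4%), 1 (12%) and 16 (35.2%) without untreated 8 h replicates 1, 2 and 3. The untreated time course (7, beside 21.6%) gave 2 without a filter (7.11%), 0 without a batch term (2.48%), 3 with the replicate block (14.6%), 0 without the Acta1 libraries (4.76%) and 1 with the index (8.44%). It gave 0 to 15 without 1 library: 4 (17.7%) and 4 (15%) without untreated 0.5 h replicates 1 and 2, and 1 (10.4%), 0 (7.38%) and 15 (31.4%) without untreated 8 h replicates 1, 2 and 3. Exosome 8 h against 0.5 h gave 7 in batch 2 alone and 2 with the index, and 0 to 1 without 1 library. The difference of the exosome effect between times gave 0 to 6 without 1 library (6 beside 9.08%). Batch gave 21 to 28 without 1 library, against 27 in the main fit, beside 57.6% of all genes there. The causes of these moves were not tested, beyond the fewer libraries that some settings hold.

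Of the genes named, these changed sign at 8 h against 0 h in untreated cells: without the Acta1 libraries Cenpf 0.12, Mki67 0.13 and Incenp 0.011; with the index Cenpf 0.11, Bub3 -0.047, Mki67 0.16, Cdk1 -0.080 and Incenp 0.063. At 8 h against 0.5 h with the index, Bub3 was at -0.034 and Cdk1 at -0.10. None of these was called there. The replicate numbers did not pair the samples: over 108 pairs of groups the correlations of same-numbered deviations ran from -0.47 to 0.41 (median -0.04), and 5 of 28 libraries correlated best with a library of their own number. With the replicate block the count at 8 h against 0 h was 9, at 8 h against 0.5 h 9 and for batch 18. The shares of all genes called in these comparisons of that fit are not given here, so the counts are not read as results about the members. The fewest reads behind a member's value were 88, and counting error is part of the spread between libraries.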
